A study of Mus musculus with 15 samples.

Results

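The immediate early transcription factors are represented here by 10 genes, namely Fos, Fosb, Jun, Junb, Jund, Egr1, Ier2, Klf2, Klf4 and Atf3. They were chosen by name, and all 10 were found among the 24421 genes of the deposited tables. The tables hold gene-level RNA-seq reads from brain tumours of mice, in 5 groups of 3 libraries. HGG is read as high-grade glioma, an aggressive tumour of glia, and EPN as ependymoma, which resembles the lining of the ventricles. The HGG model has a control group, a group carrying the label Sox9-LOF (read as loss of function) and a Sox9-GOF group (gain of function). The EPN model has controls and a Sox9-GOF group. SOX9 is a DNA-binding regulator of glia and cartilage, and the series is titled for its effect on tumour subtypes. The labels give the tissue, the model and the change in Sox9. The driver of each tumour model, the way Sox9 was altered, what the controls carry, the age of the mice and whether replicates came from separate animals are not in the labels. P-values therefore measure the spread between these libraries, which may be technical.

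Immediate early genes are switched on within minutes of a stimulus such as a growth factor, a synaptic signal or tissue stress, without the need for new protein. Kinases of the ERK, p38 and JNK pathways act on factors already bound at their promoters, mainly SRF with its ELK partners and CREB, and the transcripts are short-lived. FOS and JUN proteins pair through leucine zippers to form AP-1. EGR1, KLF2 and KLF4 are zinc finger factors, ATF3 is a stress-induced zipper protein that often represses, and IER2 is a small nuclear protein encoded by an early response gene. In brain these genes mark recently active neurons, in glioma they follow receptor kinase signalling, and in any tissue they can be induced while it is being removed.

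Libraries held 4665428 to 14119140 reads assigned to genes. Levels below are rescaled counts, that is, reads divided by a size factor computed over the 15 libraries together. Fold changes are limma log2 fold changes ± SE on log2(normalized count + 1), with p-values adjusted over all genes tested, and a change was called at an adjusted p under 0.05. In the libraries labelled Sox9-LOF the Sox9 transcript itself stood at 739, 579 and 395 rescaled counts, above the 218, 285 and 310.3 of HGG controls 1, 2 and 3. The transcript thus did not show the labelled direction, and a comparison with these libraries compares the libraries as labelled. With Sox9 gain the HGG tumours had 1275, 1537 and 1391 counts of Sox9. The EPN tumours had 2055, 1834 and 2692 with Sox9 gain, against 1045, 1040.2 and 1189 in their controls. The markers Olig2, Sox2, Nes and Pdgfra of glial tumour cells were detected in every group, with a summed level of 3347 to 14285 rescaled counts per library. In bulk tissue, fewer cells of a type and less RNA per cell cannot be told apart.

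Promoter sequences are shown for 4 genes whose highest level was in the same library. RefSeq windows on GRCm38.p6 were found for 8 of the 10 genes, and those without a window are named only. Each line gives 250 bases ending just before the RefSeq start site, 5′ to 3′, with capitals marking TGACG (or its complement CGTCA), the core of the site bound by CREB and ATF factors, and TATAAA.
Fos, chr12:85473640-85473889 (+ strand): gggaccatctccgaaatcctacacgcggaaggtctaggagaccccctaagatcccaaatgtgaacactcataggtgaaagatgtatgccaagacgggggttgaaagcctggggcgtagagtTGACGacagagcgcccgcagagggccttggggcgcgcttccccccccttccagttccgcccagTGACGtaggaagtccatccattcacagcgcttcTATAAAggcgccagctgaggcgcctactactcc
Fosb, chr7:19310046-19310295 (- strand): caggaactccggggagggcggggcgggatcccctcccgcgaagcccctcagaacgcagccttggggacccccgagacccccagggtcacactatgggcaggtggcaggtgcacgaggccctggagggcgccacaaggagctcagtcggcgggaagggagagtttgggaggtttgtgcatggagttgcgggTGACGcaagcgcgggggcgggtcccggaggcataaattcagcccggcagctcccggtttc
Junb, chr8:84978749-84978998 (- strand): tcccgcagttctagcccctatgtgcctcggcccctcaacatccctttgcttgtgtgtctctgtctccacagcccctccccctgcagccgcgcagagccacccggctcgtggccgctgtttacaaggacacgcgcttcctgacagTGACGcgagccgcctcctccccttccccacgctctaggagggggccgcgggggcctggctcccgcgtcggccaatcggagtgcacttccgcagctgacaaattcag
Atf3, chr1:191183334-191183583 (- strand): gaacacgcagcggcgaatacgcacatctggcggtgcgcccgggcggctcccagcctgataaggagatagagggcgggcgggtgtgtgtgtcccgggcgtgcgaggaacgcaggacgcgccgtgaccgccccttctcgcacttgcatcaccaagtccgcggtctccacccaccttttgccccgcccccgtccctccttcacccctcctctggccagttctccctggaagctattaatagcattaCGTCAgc
The core TGACG or its complement was found in the windows of Fos, Fosb, Junb, Klf2, Klf4 and Atf3, and not in that of Jun. The RefSeq window of Jund also had none, but it lies upstream of the GENCODE start of Jund and does not adjoin it. The Atf3 window lies inside the GENCODE span of Atf3 and does not adjoin the GENCODE start of that gene either. Windows of 300 bases were searched on both strands, from 250 bases before to 50 after the start. In Fos the matches began 129 and 66 bases before the start site, in Fosb 60, in Junb 106 and in Klf2 241. The complement began 232 bases before the start in Klf4 and 7 in Atf3. Among 32851 RefSeq promoters of the same length, 20.8% held this core. The 8 windows held no match to TGACGTCA (1.79% of promoters), to the AP-1 site TGANTCA (7.81%), to GCGTGGGCG of the EGR factors (0.612%) or to the CArG box of SRF (1.63%). TATAAA (13.6% of promoters) began 33 bases before the RefSeq start in Fos and at the RefSeq start in Junb. The GENCODE start of Junb, at chr8:84978718 on the minus strand, lies downstream of that RefSeq start and of the match. The GC box GGGCGG, found in 35.7% of promoters, was in the windows of Fos, Fosb, Jun, Klf2, Klf4 and Atf3. These matches describe letters in the windows and are no measure of binding. Bases more than 250 before the start were not searched, and Egr1 and Ier2 had no window. A missing match therefore holds for the windows only.

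The library labelled Sox9-LOF 3 stood apart for these genes, so its values are given first. Fosb reached 3784 rescaled counts there, 27.6 times the highest of the other 14 libraries. Atf3 was 5.75 times, Fos 5.61 times, Egr1 1.68 times and Junb 1.31 times its highest level elsewhere (ratios with 1 added to both counts). The other 5 genes were not at their highest there, and Ier2 was at 0.213 times the highest level elsewhere. So 5 of 10 genes peaked in this library, against 8.21% of 15109 genes, and 3 exceeded every other library by more than 2 times, against 0.788% of genes. The pattern reached other genes of the early response (37 of the 38 on a list chosen with earlier results known had a mean of at least 10). Of these, 18 were highest in this library and 11 by more than 2 times.

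Among the genes that stood out there (chosen after their values were seen), Npas4, a factor induced by neuronal activity, reached 6613 rescaled counts against at most 167 elsewhere. Arc, a synaptic activity gene, reached 11372 against at most 1058. Ptgs2, Nr4a3 and Egr4 were 7.24, 5.63 and 4.99 times their highest level elsewhere. Heat shock genes were also high, with 8 of 10 at their highest and Hspa1a, the inducible HSP70 chaperone, at 13088 against at most 1899. Neuron markers were highest in this library for 3 of 12 genes (Gad2, Gad1 and Slc17a6), and endothelial markers for 0 of 12. The neuron marker sum was 46987 there, between the 53049 and 22956 of the libraries labelled Sox9-LOF 1 and 2. Choroid plexus markers summed to 24408 there against 437 and 120 in the same pair, while HGG control 1 had 109155. Whether neuronal activity, tissue handling or choroid plexus content contributed to the early gene levels was not tested.

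**Figure D1:**
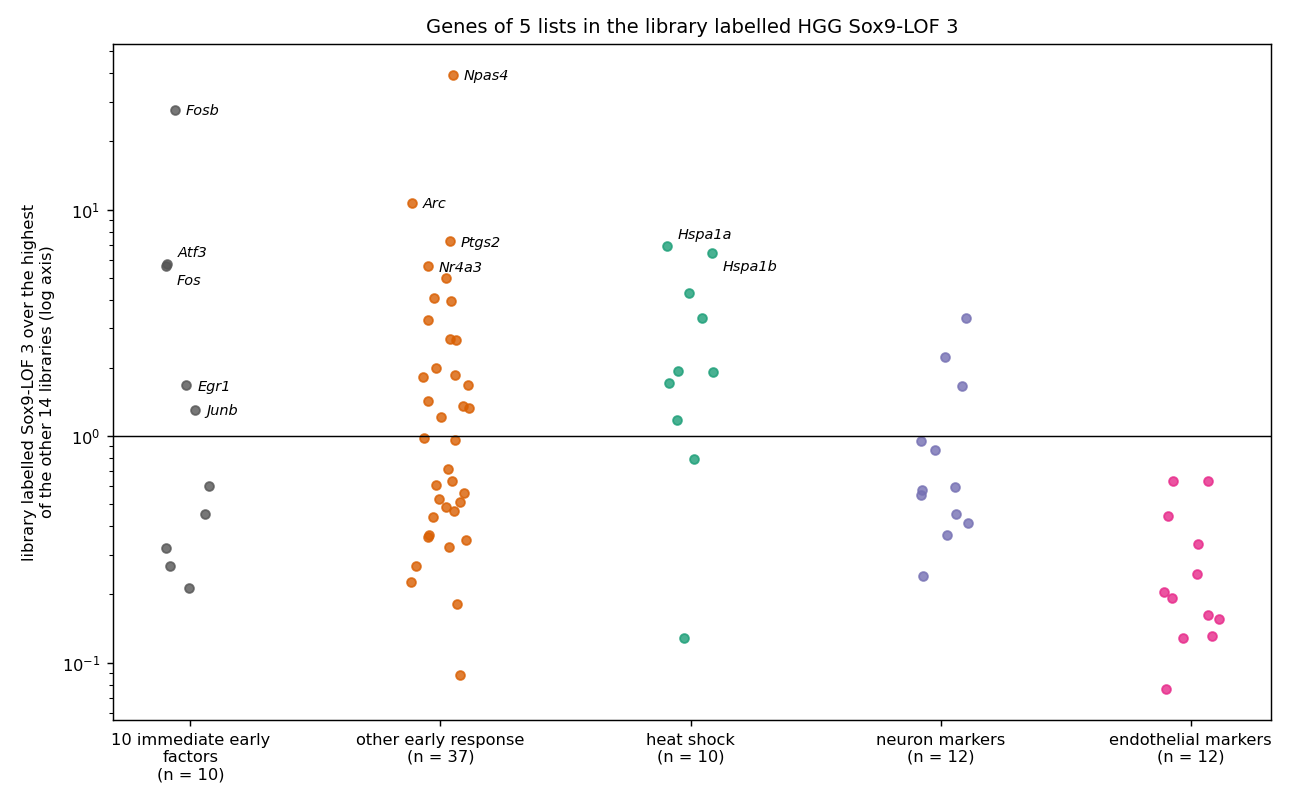
Rescaled count in the library labelled Sox9-LOF 3 divided by the highest of the other 14 libraries (log axis, 1 added to both), 1 point per gene, for the 10 immediate early factors and 4 gene lists. Points above the line at 1 are at their highest in that library: 5 of the 10 factors, 18 of 37 other early response genes, 8 of 10 heat shock genes, 3 of 12 neuron markers and 0 of 12 endothelial markers.

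Fos and Fosb encode the FOS partners in AP-1. Fos (chr12:85473890-85477273, plus strand, GRCm38) stood at 989, 344 and 251 rescaled counts in HGG controls 1, 2 and 3 and at 255, 604 and 5552 in the libraries labelled Sox9-LOF. It was at 147, 217 and 347 in HGG Sox9-GOF, at 359, 409 and 350.0 in EPN controls and at 243, 295 and 392 in EPN Sox9-GOF. Apart from the library labelled Sox9-LOF 3, every value lay below 1000, and all groups next to each other in level overlapped. HGG control 1 was well above the other two controls. The log2 fold change was 1.10 ± 1.13 in the libraries labelled Sox9-LOF against controls (adjusted p = 0.646) and -0.96 ± 0.57 in HGG Sox9-GOF (adjusted p = 0.368). In EPN Sox9-GOF it was -0.24 ± 0.21 (adjusted p = 0.656). Without the library labelled Sox9-LOF 3 the first of these values was -0.16, so its sign rested on that library.

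Fosb (chr7:19302696-19310051, minus strand) was the lowest of the 10 genes, with a median of 8.66 rescaled counts per kilobase of transcript. It stood at 9.52, 24.6 and 58.2 in HGG controls, at 45.6, 136 and 3784 in the libraries labelled Sox9-LOF and at 81.8, 27.2 and 49.1 in HGG Sox9-GOF. In EPN it was at 32.7, 49.6 and 31.1 in controls and at 18.7, 20.1 and 28.8 in Sox9-GOF, the only pair of groups for this gene in which every Sox9-GOF library lay below every control. Fosb was also the only gene of the 10 with a positive log2 fold change in HGG Sox9-GOF, at 0.98 ± 0.74 (adjusted p = 0.480). In EPN Sox9-GOF it was -0.67 ± 0.38 (adjusted p = 0.475), and in the libraries labelled Sox9-LOF it was 3.51 ± 1.60 (adjusted p = 0.322). None of these passed the test, and HGG control 1 rested on 12 reads.

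Jun, Junb and Jund encode the JUN partners, of which JUN is the classic activator, JUNB is itself strongly inducible and JUND is usually present in resting cells. Per kilobase of transcript they had the highest medians of the 10 genes over the 15 libraries, at 361, 378 and 425 rescaled counts. Jun (chr4:95049034-95052222, minus strand) stood at 3353, 2034 and 1646 rescaled counts in HGG controls and at 1153, 1745 and 2020.1 in the libraries labelled Sox9-LOF. It was at 1151, 813 and 1233 in HGG Sox9-GOF, at 960.2, 1019 and 719 in EPN controls and at 1074, 977 and 999 in EPN Sox9-GOF. The HGG controls lay above every HGG Sox9-GOF and every EPN library. Jun fell by 1.33 ± 0.30 on the log2 scale from HGG to EPN controls (adjusted p = 0.034). In HGG Sox9-GOF its log2 fold change was -1.07 ± 0.32 (adjusted p = 0.120), with groups that did not overlap.

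Junb (chr8:84974484-84978718, minus strand) stood at 1298, 504 and 1156 rescaled counts in HGG controls and at 381, 684 and 1695 in the libraries labelled Sox9-LOF. It was at 628, 224 and 495 in HGG Sox9-GOF, at 733, 725 and 372 in EPN controls and at 669, 1046 and 698 in EPN Sox9-GOF. Its libraries overlapped in all 5 pairs of groups compared, and its largest log2 fold change was the -1.12 ± 0.51 of HGG Sox9-GOF (adjusted p = 0.252). Junb lies over part of Prdx2 on the opposite strand, and antisense transcripts overlap Jun and Jund. Whether the authors counted by strand is not stated in the labels, which leaves these overlaps uncertain.

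Jund (chr8:70698949-70700616, plus strand) separated the HGG controls from every other HGG library. It stood at 1454, 2214 and 1947 rescaled counts in HGG controls, at 435, 561 and 709 in the libraries labelled Sox9-LOF and at 517, 482 and 559 in HGG Sox9-GOF. All 6 other HGG libraries thus lay below all 3 controls. In EPN the direction was opposite, with 867, 618 and 587 in controls and 1099, 1142 and 1023 in Sox9-GOF, again without overlap. The mean was 1872 ± 386 (SD, n = 3) in HGG controls and 519 ± 38.3 in HGG Sox9-GOF, or -1.81 ± 0.21 in log2 (adjusted p = 0.059). In EPN the means were 690.5 ± 154 in controls and 1088 ± 60.6 in Sox9-GOF, or 0.72 ± 0.19 in log2 (adjusted p = 0.167). Jund fell in EPN controls against HGG controls by 1.44 ± 0.24 on the log2 scale (adjusted p = 0.014). The transcript is 67.1% G and C, above 99.5% of genes, which bears on its values as given below.

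Egr1 encodes a zinc finger factor that is a direct target of ERK signalling through SRF and ELK. It stood at 964, 1751 and 1248 rescaled counts in HGG controls, at 700.3, 841 and 3970.1 in the libraries labelled Sox9-LOF and at 494, 309.7 and 537 in HGG Sox9-GOF. The HGG Sox9-GOF libraries were the 3 lowest of all 15. In EPN the values were 1124, 1755 and 1139 in controls and 1343, 1545 and 2365 in Sox9-GOF, which overlapped. The log2 fold change was -1.54 ± 0.31 in HGG Sox9-GOF (adjusted p = 0.070) and 0.42 ± 0.27 in EPN Sox9-GOF (adjusted p = 0.523). Ier2 (chr8:84661331-84662852, minus strand) stood at 433, 357 and 232 in HGG controls, at 171, 255 and 164 in the libraries labelled Sox9-LOF and at 103, 121 and 99.97 in HGG Sox9-GOF. In EPN it stood at 489, 529 and 338 in controls and at 684, 774 and 767 in Sox9-GOF. The lowest levels of Ier2 were thus those of HGG Sox9-GOF and the highest those of EPN Sox9-GOF, and neither group overlapped its controls. Its log2 fold changes were -1.59 ± 0.29 (adjusted p = 0.063) and 0.78 ± 0.20 (adjusted p = 0.166).

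Klf2, known as a flow-induced factor of quiescent endothelium, and Klf4, one of the reprogramming factors, were both lowest in HGG Sox9-GOF. Klf2 (chr8:72319033-72321656, plus strand) stood at 101, 92.3 and 194 rescaled counts in HGG controls, at 45.6, 46.5 and 51.2 in the libraries labelled Sox9-LOF and at 31.6, 25.0 and 23.7 in HGG Sox9-GOF. These groups did not overlap with each other. In EPN the values were 172, 127 and 151 in controls and 121, 195 and 104 in Sox9-GOF. The log2 fold change was -1.34 ± 0.37 in the libraries labelled Sox9-LOF (adjusted p = 0.175), -2.14 ± 0.39 in HGG Sox9-GOF (adjusted p = 0.063) and -0.10 ± 0.29 in EPN Sox9-GOF (adjusted p = 0.912). Klf4 (chr4:55527143-55532466, minus strand) stood at 69.0, 187 and 73.9 in HGG controls, at 56.1, 72.6 and 170.3 in the libraries labelled Sox9-LOF and at 31.6, 33.8 and 40.3 in HGG Sox9-GOF. It was at 308, 247 and 119.8 in EPN controls and at 267, 337 and 375 in EPN Sox9-GOF, above every HGG library. Klf4 changed by -1.44 ± 0.46 in HGG Sox9-GOF (log2, adjusted p = 0.139), which missed the threshold although the groups did not overlap.

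Endothelial markers were measured beside Klf2. Their summed level was 969 to 2295 rescaled counts in HGG controls and 1091 to 1533 in HGG Sox9-GOF, ranges that overlapped while the Klf2 levels did not. In EPN controls the sum was 4860.2 to 6407, and all 12 endothelial genes were higher than in HGG controls, with a median log2 fold change of 2.20. By limma 7 of the 12 were called, beside 15.3% of all genes in either direction. Klf2 differed there by 0.29 ± 0.35 (adjusted p = 0.599). In EPN Sox9-GOF all 12 endothelial genes had negative log2 fold changes (median -0.62, 0 called), with Ptprb at -1.25 ± 0.22 (adjusted p = 0.133). The part of endothelial content in the Klf2 levels was not tested.

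Atf3 (chr1:191170296-191218039, minus strand) did not separate any group. It stood at 269, 75.9 and 248 rescaled counts in HGG controls, at 160.2, 249 and 1552 in the libraries labelled Sox9-LOF and at 215, 82.9 and 185 in HGG Sox9-GOF. In EPN it was at 189, 221 and 99.6 in controls and at 154, 196 and 215 in Sox9-GOF. Replicate 2 was the lowest library in both HGG controls and HGG Sox9-GOF, and outside the library labelled Sox9-LOF 3 no value exceeded 269. Its log2 fold change was -0.18 ± 0.60 in HGG Sox9-GOF (adjusted p = 0.888) and 0.26 ± 0.33 in EPN Sox9-GOF (adjusted p = 0.766). ATF3 is best known as a target of the integrated stress response. Of 15 genes of that response 0 were called in either Sox9-GOF comparison, where 0% of all genes were called. The median log2 fold change of the 15 was -0.09 in HGG and 0.31 in EPN. Without overlap, 3 were lower and 0 higher in HGG Sox9-GOF, where 15.2% of all genes were lower. In EPN Sox9-GOF 5 were higher and 0 lower without overlap, where 9.45% of all genes were higher.

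**Figure D2:**
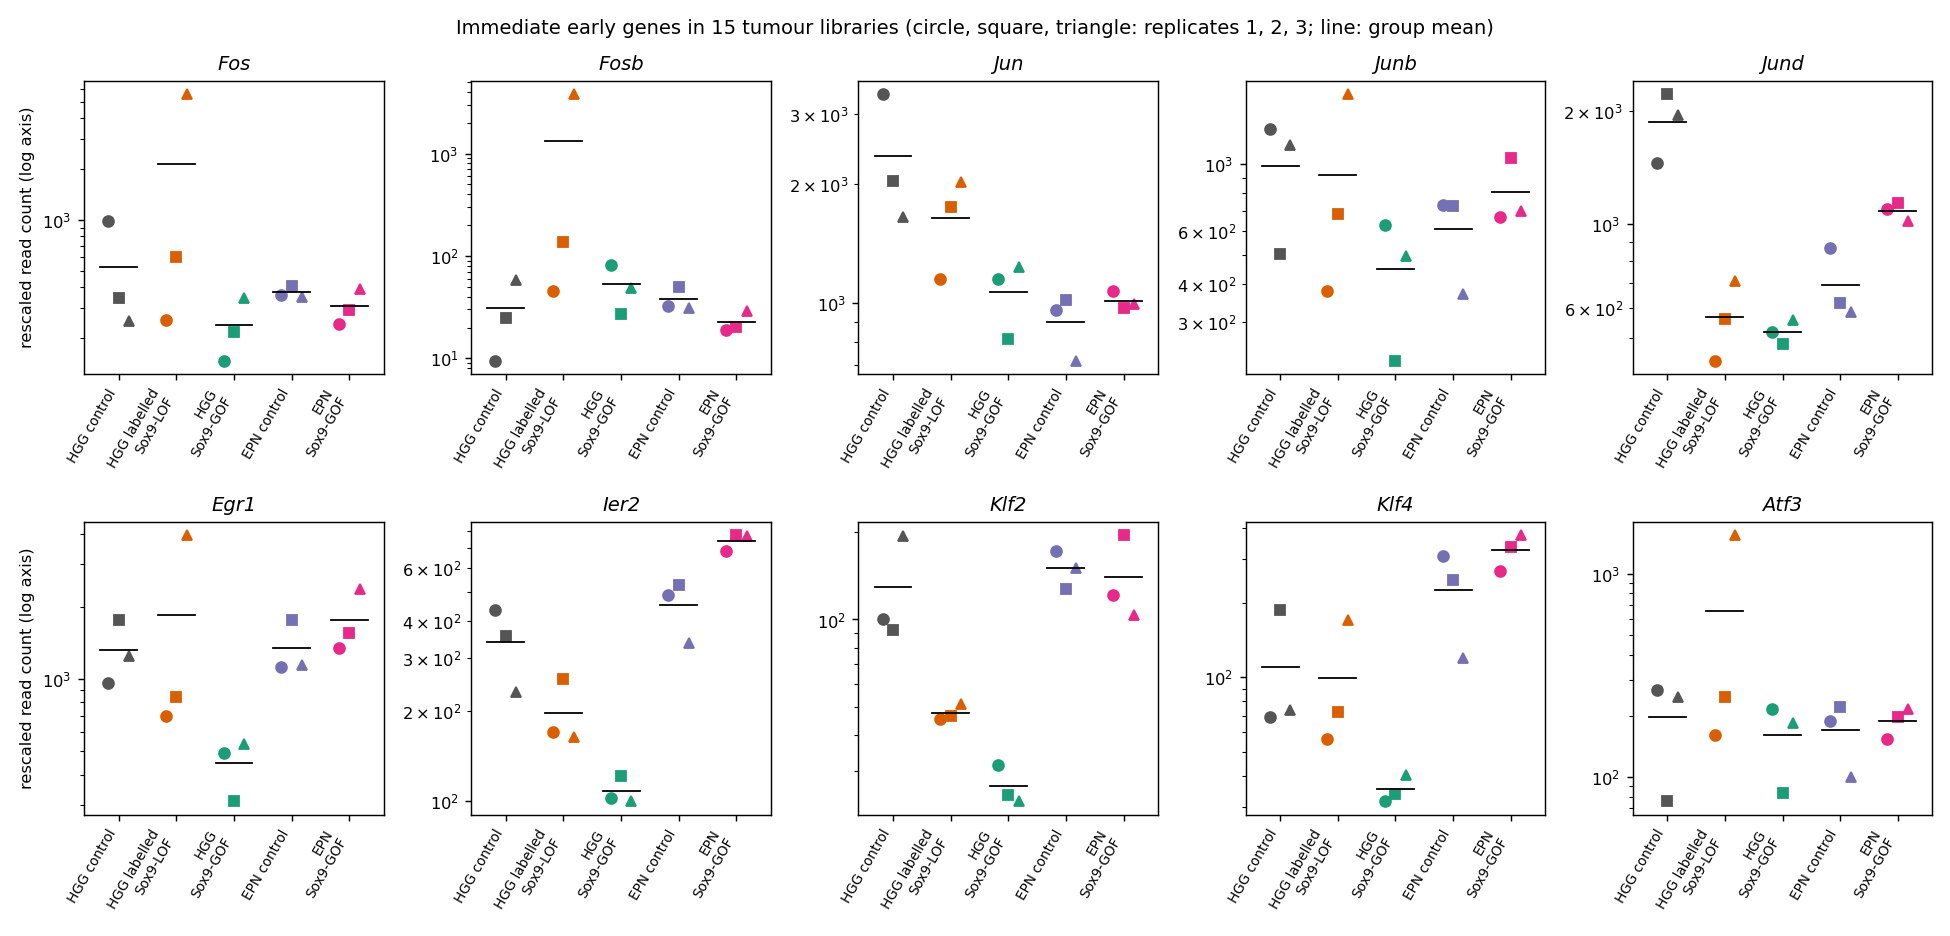
Rescaled counts (log axis) of the 10 immediate early factors in the 15 libraries. Symbols are replicates 1, 2 and 3, and the line is the group mean. Jund, Egr1, Ier2, Klf2 and Klf4 are low in all 3 HGG Sox9-GOF libraries, while Fos, Fosb, Egr1, Junb and Atf3 have their highest point in the library labelled Sox9-LOF 3.

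The gain of Sox9 in HGG was compared with the HGG controls in its own table. Of the 10 genes, 9 had lower means on the log2 scale and 1 (Fosb) a higher mean, with a median log2 fold change of -1.28 against 0.03 over 15092 genes. Of all genes 48.1% were lower. In 6 of them (Jun, Jund, Egr1, Ier2, Klf2 and Klf4) every HGG Sox9-GOF library lay below every control, as it did for 15.2% of all genes. With 3 libraries against 3, the smallest two-sided p of an exact permutation test is 0.1, and each of the 6 was at that value. By limma 0 of the 10 genes passed, as did 0% of all genes. At an unadjusted p under 0.05 the counts were 6 of 10 and 22.7%. By DESeq2 the same 6 genes passed, beside 13.6% of all genes in either direction, and by edgeR 0 passed. With the spread estimated over 15 libraries 4 passed (Jun, Jund, Ier2 and Klf2), beside 14.8% of genes. The fit with the replicate number as a block called 0. Neuron markers were higher for 11 of 12 genes (median 1.07), astrocyte markers for 8 of 8 (median 1.45) and microglial markers for 10 of 10 (median 0.58), with 0 called in each. Their summed levels overlapped the controls, at 27217 to 42290 against 7143 to 58278 rescaled counts for neurons, 29983 to 110752 against 9027 to 44758 for astrocytes and 22412 to 35696 against 11175 to 36474 for microglia. Lymphocyte markers were lower for 9 of 9 genes (median -1.10) and choroid plexus markers for 6 of 6 (median -0.59). In both lists 0 genes were called. Lymphocyte sums overlapped the controls too, at 110 to 541 against 24.6 to 2959. So did choroid plexus sums, at 79.7 to 9632 against 41.2 to 109155. The part of these cell types in the lower early gene levels was not tested.

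Partners and relatives were read from lists. Among 37 other immediate early and early response genes 26 had negative log2 fold changes in HGG Sox9-GOF, with a median of -0.35 and 0 called. Dusp1, a phosphatase that switches off MAP kinases, was at -0.90 ± 0.25 (adjusted p = 0.104) and Per1, a clock gene, at -1.49 ± 0.41 (adjusted p = 0.105). Homer1, a synaptic scaffold gene, was at 1.3 ± 0.34 (adjusted p = 0.097). Nab2, a co-repressor of EGR factors, was at -1.11 ± 0.24 (adjusted p = 0.072), and Egr2 at -1.57 ± 0.45 (adjusted p = 0.113). Of the 12 other KLF genes 8 were higher and 4 lower, with a median of 0.51, or 0.19 after the GC and length correction described next. Klf12 was at 1.36 ± 0.39 (adjusted p = 0.114). Of the 25 upstream factors and kinases 15 were higher and 10 lower (median 0.40). After the same correction 18 were higher and 7 lower (median 0.11). Before it, Rps6ka3, a kinase of CREB and SRF, was at 1.16 ± 0.20 (adjusted p = 0.059) beside Map2k2, an activator of ERK, at -1.04 ± 0.21 (adjusted p = 0.071). In each of these lists 0 genes were called in this comparison.

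Base composition moved with this comparison. Across 14982 genes the log2 fold change in HGG Sox9-GOF followed the GC content of the transcript with a Spearman rho of -0.603, and genes are not independent replicates. The 10 transcripts ranged from 51.9% (Fos) to 67.1% (Jund), above 64.3% to 99.5% of genes. After a correction of every library for GC content and length, 8 of the 10 remained below zero, with a median of -0.76 against -0.05 for all genes. Jund moved from -1.81 to -0.70, Klf2 from -2.14 to -1.34, Ier2 from -1.59 to -0.84, Egr1 from -1.54 to -1.15, Klf4 from -1.44 to -1.16, Jun from -1.07 to -0.73 and Junb from -1.12 to -0.26. Their adjusted p-values were then 0.452 for Jund and Egr1, 0.487 for Klf2, 0.539 for Ier2, 0.543 for Klf4, 0.597 for Jun and 0.912 for Junb.

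The plot of library GC trends shows that the groups themselves differed. In HGG controls the deviation of genes from their mean rose with GC content (rho of 0.229, 0.374 and 0.308), and in HGG Sox9-GOF it fell (-0.289, -0.298 and -0.242). EPN controls ranged from -0.047 to 0.079 and EPN Sox9-GOF from -0.107 to 0.162. The mean centred log2 level of the 10 genes was 0.26, 0.10 and 0.27 in HGG controls and -0.73, -1.25 and -0.71 in HGG Sox9-GOF. The library labelled Sox9-LOF 3, at 1.57, lay far above libraries of like GC trend. Mir6236, Lars2 and Rn45s, whose reads often vary with library quality, were read beside these levels. Mir6236 stood at 1635 to 3188 rescaled counts in HGG controls and at 223 to 885 in HGG Sox9-GOF, without overlap. Lars2 (7672 to 9900 against 2486 to 8886) and Rn45s (9499 to 26486 against 7015 to 65718) overlapped. The part of library quality in these levels was not tested.

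**Figure D3:**
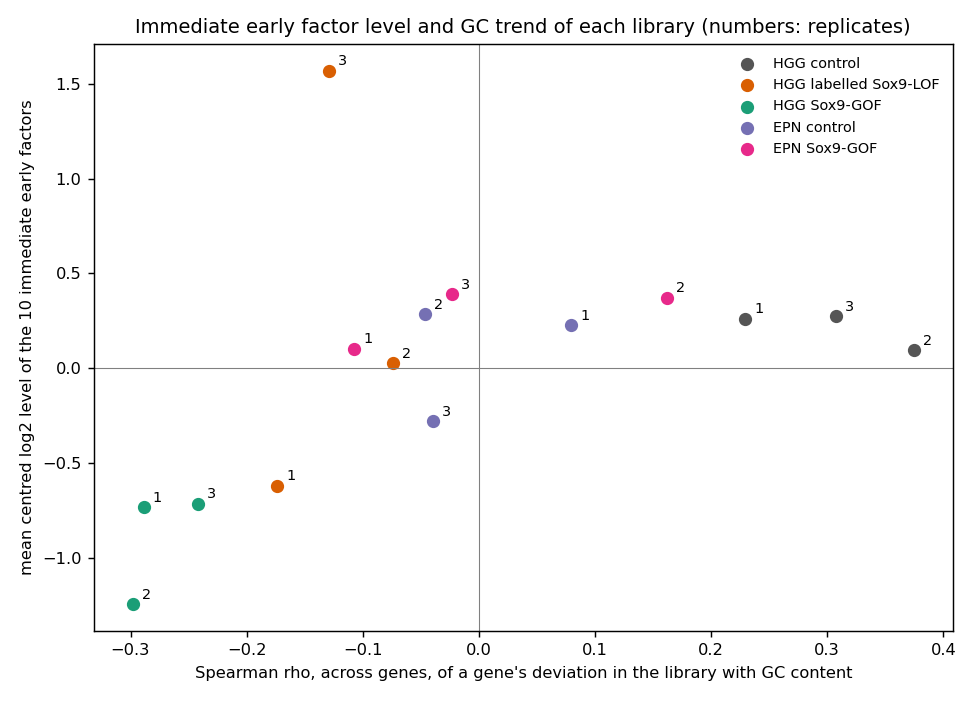
Mean centred log2 level of the 10 immediate early factors (vertical) against the Spearman rho, across genes, of a gene's deviation in the library with GC content (horizontal), 1 point per library with its replicate number. HGG controls lie at the right, HGG Sox9-GOF libraries at the lower left, and the library labelled Sox9-LOF 3 alone at the top with a level of 1.57.

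The libraries labelled Sox9-LOF were compared with the same HGG controls, so the values of both comparisons share those 3 libraries. Jund and Klf2 lay below every control in the libraries labelled Sox9-LOF, at -1.73 ± 0.27 (adjusted p = 0.143) and -1.34 ± 0.37 (adjusted p = 0.175). Non-overlapping groups, lower, made up 11.7% of all genes. Among the 10 genes 4 were higher and 6 lower, with a median log2 fold change of -0.21 against 0.01 for 14861 genes, of which 49.3% were lower. By limma 0 passed (0% of all genes), and 3 of 10 against 17.3% of genes had an unadjusted p under 0.05. By DESeq2 Jund and Klf2 passed, beside 8.01% of genes, as they did with the spread estimated over 15 libraries, beside 7.19%. By edgeR 0 passed. Without the library labelled Sox9-LOF 3, 8 of the 10 were lower and the median was -0.66. Of the 37 other early response genes 27 were higher with it (median 0.26) and 18 without it (median -0.07).

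After the GC and length correction the median of the 10 was 0.21 in this comparison, with 6 higher. Jund was then at -0.75 and Klf2 at -0.70, with adjusted p-values of 0.553 and 0.664. Heat shock genes, a marker of stress during tissue handling, had a median log2 fold change of 0.86 with all 10 higher, and 0.50 without the library labelled Sox9-LOF 3, with 9 of 10 higher. None of these 10 was called. Hspb1 was at 2.70 ± 0.86 (adjusted p = 0.205). All 12 neuron markers were higher too (median 0.90, 0 called), with Gad2 at 3.27 ± 0.99 (adjusted p = 0.199). So were all 8 astrocyte markers (median 1.77, 0 called), whose sum was 65036 to 75604 rescaled counts against 9027 to 44758 in controls. Lymphocyte markers were lower for 9 of 9 genes (median -2.55, 0 called), and -3.42 was their median without the library labelled Sox9-LOF 3. Their sums overlapped the controls, at 35.2 to 304 against 24.6 to 2959. Choroid plexus markers were higher for 5 of 6 genes (median 0.52, 0 called), and for 0 of 6 without that library. Like Jund and Klf2, Mir6236 (198 to 314 against 1635 to 3188) and Lars2 (2562 to 3794 against 7672 to 9900) lay below every control, while Rn45s (7116 to 9886 against 9499 to 26486) overlapped. The part of these markers and RNAs in the early gene levels was not tested.

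HGG Sox9-GOF was also set directly against the libraries labelled Sox9-LOF, which leaves out the shared controls. All 10 genes were lower in Sox9-GOF, with a median log2 fold change of -1.10 against -0.02 over 14873 genes, of which 52.8% were lower. Egr1, Ier2, Klf2 and Klf4 did not overlap, as 7.60% of all genes did not in that direction. Klf4 was at -1.31 ± 0.44 and Ier2 at -0.83 ± 0.25 (both adjusted p = 0.620), Klf2 at -0.82 ± 0.31 and Egr1 at -1.61 ± 0.61 (both adjusted p = 0.648). By limma 0 of 10 and 0% of all genes passed, with 4 of 10 and 7.41% at an unadjusted p under 0.05. By DESeq2 0 of 10 and 0.818% passed, and by edgeR 0. Jund, at -0.10 ± 0.21, had overlapping groups here. Without the library labelled Sox9-LOF 3, 9 of the 10 were lower and the median was -0.74. Other early response genes were lower for 34 of 37 (median -0.69), and for 28 of 37 without that library (median -0.37). Heat shock genes were lower for 10 of 10 (median -0.78), endothelial markers for 12 of 12 (median -0.53), and microglial markers were higher for 10 of 10 (median 0.73), with 0 called in each. Microglial markers summed to 22412 to 35696 rescaled counts in Sox9-GOF and 16295 to 18310 in the libraries labelled Sox9-LOF, and heat shock genes to 31079 to 35982 against 37927 to 100915. Their part in the early gene levels was not tested. In this comparison too the log2 fold change followed GC content across genes (rho of -0.286, 14764 genes). After the GC and length correction 9 of the 10 early genes were lower, with a median of -0.97 against -0.03 for all genes. By limma 3 of the 10 were then at an unadjusted p under 0.05, and 0 were called, as were 0% of all genes.

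The gain of Sox9 in EPN was compared with the EPN controls. Means on the log2 scale were higher for 7 (Jun, Junb, Jund, Egr1, Ier2, Klf4 and Atf3) and lower for 3 (Fos, Fosb and Klf2), with a median of 0.34 against 0.04 over 14591 genes, of which 55.0% were higher. Ier2 and Jund were higher without overlap, as were 9.45% of all genes, and Fosb was lower without overlap, as were 12.5%. By limma 0 of 10 passed (0% of genes), and 2 of 10 against 15.1% of genes had an unadjusted p under 0.05. By DESeq2 Ier2 and Jund passed, beside 5.82% of genes, and by edgeR 0. In this comparison the log2 fold change did not follow GC content across genes (rho of 0.004). After the correction Jund was at 0.86 (limma adjusted p = 0.169) and Ier2 at 0.85 (adjusted p = 0.174). The same correction moved the median of all genes from 0.04 to 0.15. Of 36 other early response genes tested here 18 were higher and 18 lower (median 0.04). Among them Socs3 was at 0.63 ± 0.14 (adjusted p = 0.152), Gadd45b at 1.00 ± 0.29 and Ptgs2 at -0.96 ± 0.28 (both adjusted p = 0.186). All 12 neuron markers were lower in EPN Sox9-GOF without overlap (median -2.28, 0 called), and their sum was 2277 to 4332 rescaled counts against 7757 to 16647 in controls. All 8 astrocyte markers were lower as well (median -1.75, 0 called), with sums of 7968 to 27659 against 37329 to 43166. The quality RNAs were higher in every EPN Sox9-GOF library than in any control: Mir6236 at 322 to 1374 against 121 to 255, Lars2 at 2892 to 12673 against 1823 to 2772 and Rn45s at 20437 to 102246 against 6327 to 7518. The part of cell content and library quality in the levels of the 10 genes was not tested.

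Between the controls of the models, EPN minus HGG, 5 of the 10 genes were higher and 5 lower, with a median of -0.03 against 0.0025 over 15105 genes, of which 50.2% were higher. Jun and Jund fell, as given above, and were the only 2 of the 10 called, against 15.3% of all genes in either direction and 5.83% downward. The same 2 genes lay lower without overlap, as did 18.4% of genes, and were the 2 at an unadjusted p under 0.05 (33.3% of genes). DESeq2 called the same pair, beside 26.3% of genes. After the GC and length correction Jun was at -1.22 (adjusted p = 0.067) and Jund at -0.59 (adjusted p = 0.105), while 11.8% of all genes passed. With the replicate block Jun alone passed, beside 7.56% of genes. Jun lost its call without HGG control 2 or without any 1 of the EPN controls, and Jund without EPN control 2 or 3, with log2 fold changes of -1.18 to -1.43 for Jun and -1.33 to -1.37 for Jund. Klf4 was 2.11 times as high in EPN controls (log2 1.08 ± 0.52, adjusted p = 0.201), with overlapping groups. Of the other AP-1 and ATF partners, Mafk rose by 2.62 ± 0.17 (adjusted p = 0.001) and Maf by 3.23 ± 0.29 (adjusted p = 0.003), and Jdp2, which represses AP-1, fell by 1.29 ± 0.23 (adjusted p = 0.016). Of 37 other early response genes 2 were called: Sik1, a kinase induced by CREB, rose by 2.07 ± 0.42 (adjusted p = 0.024), and Ctgf, a target of YAP, by 2.09 ± 0.33 (adjusted p = 0.012). Microglia and macrophages, which express Maf, had higher markers for 10 of 10 genes with 2 called, and a summed level of 23991 to 51811 against 11175 to 36474 in HGG controls. Their part in the AP-1 partner levels was not tested.

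The difference between the Sox9-GOF effects in EPN and in HGG was tested as a contrast of 4 groups over 12 libraries. A positive value means that the log2 fold change was higher in EPN than in HGG. Jund differed by 2.5 ± 0.28 (adjusted p = 0.008), Ier2 by 2.35 ± 0.35 (adjusted p = 0.016), Klf2 by 2.01 ± 0.48 (adjusted p = 0.038) and Egr1 by 1.93 ± 0.44 (adjusted p = 0.033). These 4 of the 10 genes passed, against 6.10% of 15088 genes in either direction and 2.63% upward. Klf4 at 2.09 ± 0.60 and Jun at 1.28 ± 0.37 just missed the threshold (both adjusted p = 0.061). Fosb alone was negative, at -1.67 ± 0.85 (adjusted p = 0.233), and the median of the 10 was 1.76 against -0.05 for all genes. At an unadjusted p under 0.05 the counts were 7 of 10 and 27.2%, and 9 of 10 were positive against 47.7% of all genes. By edgeR the same 4 passed, beside 4.83% of genes. By DESeq2 6 did, with Jun and Klf4 added, beside 7.01% of genes in that direction. Of the cell type markers, 12 of 12 for neurons (median -3.28), 8 of 8 for astrocytes (median -2.89) and 9 of 10 for microglia (median -1.14) were negative. By limma 1 neuron marker and 1 microglial marker were called, both negative, and 0 astrocyte markers. Lymphocyte markers were positive for 9 of 9 genes (median 2.53) and choroid plexus markers for 5 of 6 (median 0.88). In both of these lists 0 genes were called. The part of these cell types in the difference was not tested.

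Across genes this difference also followed GC content (rho of 0.436). After the GC and length correction the values were 1.62 for Jund, 1.72 for Ier2, 1.86 for Egr1 and 1.42 for Klf2, and none of the 10 passed (adjusted p = 0.055, 0.077, 0.068 and 0.121), as 0.0401% of all genes did. The number of all genes called went from 920 to 6 with that correction. With the replicate number as a block Jund and Ier2 passed, each at an adjusted p of 0.047, beside 2.36% of genes. Leaving out each library in turn kept Jund and Ier2 in 12 of 12 fits, and Egr1 and Klf2 in 3 of 12 each. Egr1 stayed only without HGG control 1, HGG control 3 or EPN Sox9-GOF 1, and Klf2 only without 1 of the HGG controls. Their values ranged from 1.69 to 2.15 for Egr1 and from 1.75 to 2.20 for Klf2 in the fits that lost the call. Egr1 also lost its call with the spread estimated over 15 libraries (adjusted p = 0.107), and Klf2 with no filter on low counts (adjusted p = 0.053).

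**Figure D4:**
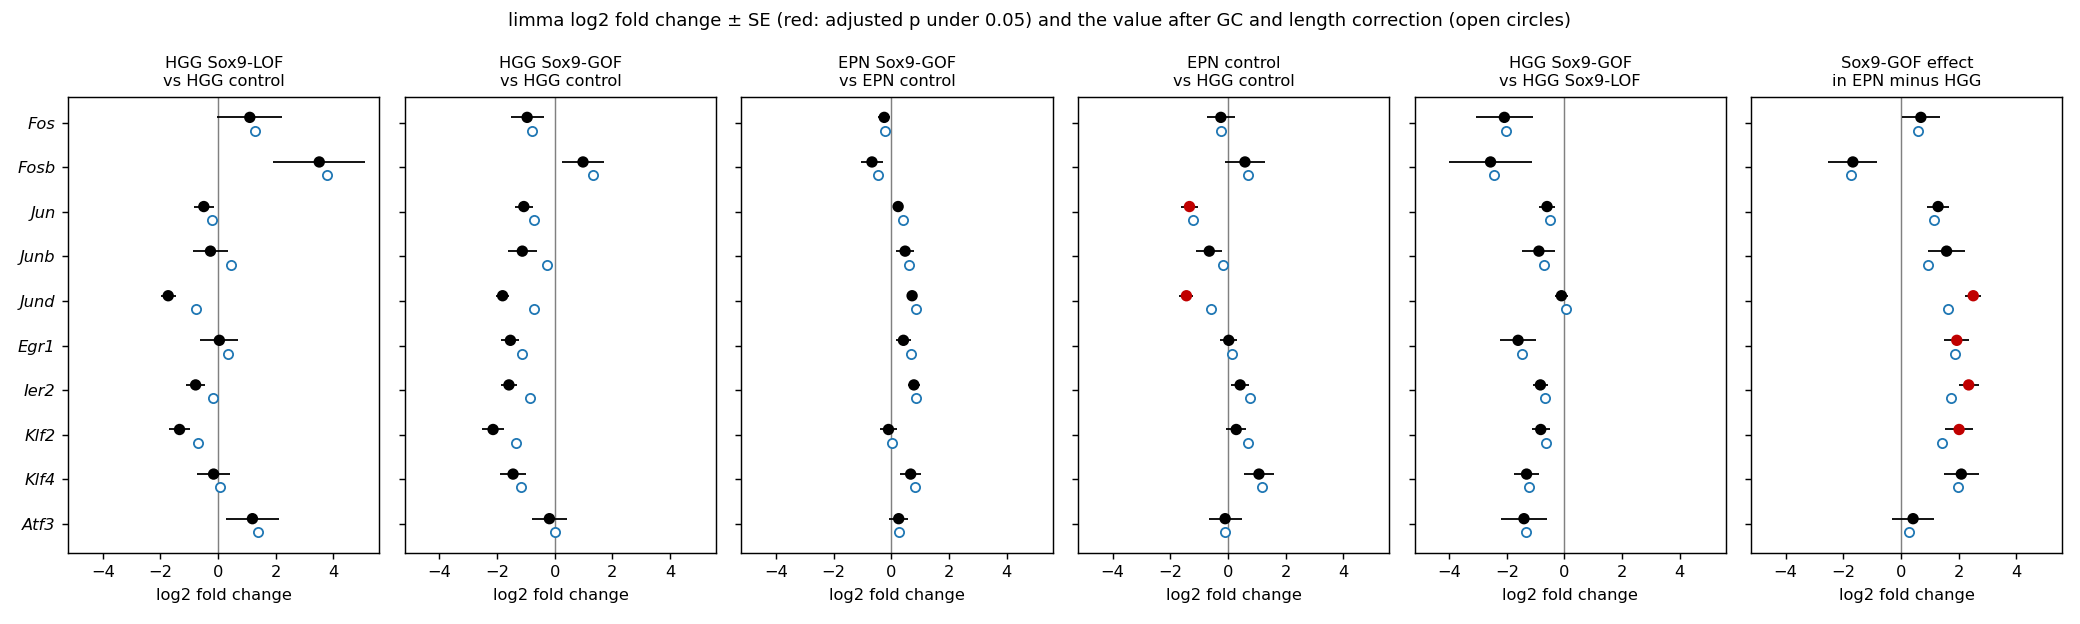
limma log2 fold changes ± SE of the 10 immediate early factors in 6 comparisons (filled points, red where the adjusted p is under 0.05) and the value after GC and length correction (open circles). In HGG Sox9-GOF 9 of the 10 filled points lie left of zero, and in the difference between models 9 lie right of zero with Jund, Ier2, Egr1 and Klf2 in red.

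Among the partners, Nab2 differed in the same direction by 1.10 ± 0.26 (adjusted p = 0.038), the only 1 of 6 EGR relatives and NAB co-repressors called. It stood at 769, 845 and 659.7 rescaled counts in HGG controls, at 393, 259 and 396 in HGG Sox9-GOF, at 962, 964 and 1016 in EPN controls and at 889, 932 and 1051 in EPN Sox9-GOF. The HGG Sox9-GOF libraries lay below the HGG controls, and the EPN groups overlapped. Of 25 upstream factors and kinases, 1 was called upward and 4 downward. Of all genes 6.10% were called in either direction and 2.63% upward. Map2k2 differed by 1.14 ± 0.29 (adjusted p = 0.045), Rps6ka3 by -1.31 ± 0.30 (adjusted p = 0.033) and Braf, a kinase at the top of the ERK cascade, by -1.43 ± 0.33 (adjusted p = 0.036). After the GC and length correction 0 of the 6 EGR relatives and co-repressors and 0 of the 25 upstream genes were called. Only 0.0401% of all genes were called after it. Of 37 other early response genes 25 were positive, with a median of 0.43 and 0 called. The 12 other KLF genes had a median of -0.47, with 0 called.

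How the 10 genes varied together is given as a description over the 15 libraries, which share groups and GC trends. Ier2 and Klf4 had a Pearson r of 0.88 (Spearman 0.88), Ier2 and Klf2 0.82 (0.75) and Egr1 and Klf4 0.80 (0.82). Without the library labelled Sox9-LOF 3 these were 0.93, 0.82 and 0.88. Fos and Fosb had a Pearson r of 0.69 with that library and -0.27 without it. Junb and Atf3 stood at 0.79 with it and 0.77 without it. Egr1 had an r of 0.59 with Ier2 and 0.58 with Klf2, or 0.87 and 0.81 without that library, beside 0.66 with Junb (0.54 without it). The tie between Fos and Fosb rested on 1 library.

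The genes outside the 10 whose profile was most like their mean were Bag3, Egr2, Dusp1, 4931440P22Rik and Dxo, with Pearson r of 0.863, 0.857, 0.856, 0.822 and 0.811 over 15 libraries and 15109 genes. Egr2 and Dusp1 also belong to the list of early response genes, and Bag3 encodes a partner of HSP70. Without the library labelled Sox9-LOF 3 the same 5 genes were at 0.892, 0.847, 0.742, 0.732 and 0.753. The leading gene was then Adrm1 at 0.933, which was at 0.503 over all 15. Egr2 stood at 355 rescaled counts in the library labelled Sox9-LOF 3, at 21.3 to 47.4 in HGG Sox9-GOF and at 76.7 to 152 in HGG controls.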

How the data were processed

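Poly(A) RNA of frozen mouse brain tumour tissue was sequenced with a stranded TruSeq kit from 300 ng of total RNA, per the labels' protocols. The submitters' processing notes name the build mm10, the aligner STAR 2.5.0a, DESeq2 1.30.1, FastQC 0.11.7 and MultiQC 1.11. Which counter was used, with which strand setting and gene models, is not given in the sources used here. The authors deposited 3 tables of 6 libraries, whose values are a signal per gene: reads divided by a size factor per library. Every value was a whole number of reads within 0.001 read (100% of values), and recomputed median-of-ratios factors equalled the deposited ones. Both HGG tables hold the same control reads (24421 of 24421 genes). The tables hold 6 empty columns and 27 gene names turned into dates, which were kept in the tests and not named.

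limma 3.58.1 in R 4.3.3, which lets the variance follow the mean, was the main test. It was given log2(normalized count + 1). Genes needed a mean of 10 or more, and p-values were adjusted over all genes by Benjamini-Hochberg. The 3 deposited comparisons used their own tables. The other 3 used recovered reads rescaled over the 15 libraries. Fold changes on this scale understate those of low genes. Groups and replicate numbers come from the titles. Alternatives were pseudocount 8, no filter, TMM, edgeR 4.0.16 and DESeq2 1.42.0 on recovered reads, a spread shared by 15 libraries, a loess correction for GC content and length (98.3% of genes had both, from GENCODE M21 transcripts), the replicate number as a block, and leaving out each library. The deviations of same-numbered HGG Sox9-GOF and HGG control libraries correlated at 0.178, 0.443 and 0.224, all over 0.1, so the numbers may pair these samples. The pairing rests on the data, not the labels. Positions are GENCODE genes on GRCm38 (mm10). The 10 genes and the gene lists were chosen with earlier results of these data known. From each list up to 3 genes per comparison, those with the smallest limma p, are named. Any other gene is marked as chosen afterwards.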

Additional observations from a re-analysis of the deposited data

Results flagged for a closer look

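The effect of Sox9 gain differed between the EPN and HGG models for 4 of the 10 genes by limma's test of the difference itself. Of all 15088 genes 6.10% passed in either direction and 2.63% upward. The log2 difference was 2.5 for Jund (adjusted p = 0.008), 2.35 for Ier2 (adjusted p = 0.016), 2.01 for Klf2 (adjusted p = 0.038) and 1.93 for Egr1 (adjusted p = 0.033). Jund and Ier2 lay below their controls in 3 of 3 HGG Sox9-GOF libraries and above them in 3 of 3 EPN Sox9-GOF libraries. Egr1 and Klf2 lay below their controls in 3 of 3 HGG Sox9-GOF libraries and overlapped them in EPN. Of all genes 15.2% were lower without overlap in HGG Sox9-GOF and 9.45% higher without overlap in EPN Sox9-GOF. With the replicate block Jund and Ier2 passed, beside 2.36% of genes, and Klf2 (adjusted p = 0.075) and Egr1 (adjusted p = 0.071) did not. With the GC and length correction none of the 4 passed (adjusted p = 0.055 to 0.121), while 0.0401% of all genes did. Egr1 and Klf2 each passed in 3 of 12 fits that left out 1 library.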

How the results depend on the processing

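Of the values compared under other settings 870 kept their direction and their side of the threshold, 41 no longer passed, 20 newly passed and 31 changed sign; the cause was not tested. By DESeq2 the immediate early factors called numbered 2 in the libraries labelled Sox9-LOF, 6 in HGG Sox9-GOF and 2 in EPN Sox9-GOF. In the same comparisons DESeq2 called 8.01%, 13.6% and 5.82% of all genes. By limma and edgeR 0 of these factors were called there, and 0% of all genes. With the spread of 15 libraries 2 and 4 were called in the HGG comparisons with controls, beside 7.19% and 14.8% of all genes. For EPN against HGG controls the 2 calls became 0 with the GC and length correction, 1 (Jun) with the replicate block, 0 with both, and 0 to 2 leaving out 1 library. For the difference between models the 4 calls became 0 with the GC correction, 2 with the replicate block, 0 with both, 3 with the spread of 15 libraries (Egr1 lost), 3 with no filter (Klf2 lost), and 2 to 6 leaving out 1 library. The block changed no call in the other comparisons. All genes called between controls numbered 2317 (368 to 3633 leaving out 1 library, 1142 with the block, 4353 by DESeq2, 4176 with the shared spread), and 920 for the difference between models (44 to 2135 leaving out 1 library, 6 with the GC correction, 356 with the block, 2413 by DESeq2, 1514 with the shared spread). The GC correction moved the median of all genes to 0.15 in EPN Sox9-GOF, -0.11 between controls and 0.20 for the difference.

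With the GC correction, alone or with the block, values changed sign for Junb (0.43) and Klf4 (0.0781) in the libraries labelled Sox9-LOF, Atf3 (0.0175) in HGG Sox9-GOF, Klf2 (0.0392) in EPN Sox9-GOF and Jund (0.0594) between the altered HGG groups. Leaving out 1 library in turn gave, in the libraries labelled Sox9-LOF, -0.16 to 2.05 for Fos, -0.83 to 0.24 for Junb, -0.74 to 0.51 for Egr1 and -0.61 to 0.31 for Klf4. It gave -0.76 to 0.23 for Atf3 in HGG Sox9-GOF, and -0.36 to 0.095 for Klf2 and -0.0815 to 0.48 for Atf3 in EPN Sox9-GOF. Between controls it gave -0.65 to 0.34 for Fos, -0.0357 to 1.21 for Fosb, -0.18 to 0.26 for Egr1 and -0.68 to 0.25 for Atf3. It gave -0.28 to 0.0694 for Jund between the altered HGG groups and -0.00076 to 1.00 for Atf3 in the difference between models. With 3 libraries per group and 12 reads behind the lowest value, changes of Fosb were the least measurable.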
